A study of Mus musculus with 5 samples.

Results

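The stem cell niche factors described here are 10 genes of the bone marrow microenvironment, *Cxcl12*, *Cxcr4*, *Kitl*, *Vcam1*, *Angpt1*, *Lepr*, *Igf1*, *Adipoq*, *Pdgfrb* and *Csf1*. They were chosen by name, as known genes of the niche and with earlier results of these arrays known, so their counts beside those of all genes are a description. Every probe annotated to one of them was read, which gave 23 probes of 10 genes among 19057 named genes on the array. RNA came from total marrow cells of both tibias of male BALB/c mice, 7 to 8 weeks old. The irradiated groups received 4 Gy of total body gamma-radiation and their marrow was taken on day 3, 7, 11 or 21, written as days after irradiation (DAI), while the control group was sham-irradiated and is called 0 DAI. Each time has 1 array, and the study's methods do not settle whether its RNA came from a single mouse or from several, so that no value below has a replicate error and no test between times can be made.

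The niche is the set of non-hematopoietic cells and some of their neighbours that hold hematopoietic stem cells (HSCs) in the marrow and feed them signals. Perivascular reticular cells, which carry the leptin receptor and PDGF receptor beta, are a main source of the chemokine CXCL12 and of stem cell factor, the product of *Kitl*. CXCL12 binds CXCR4 on HSCs, B cell precursors and neutrophils and keeps them in the marrow, and VCAM-1 holds cells that carry the integrin VLA-4. Marrow flushed from a bone holds few stromal cells beside many blood cells, and in whole marrow fewer cells of a type and less RNA per cell cannot be told apart.

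The values are intensities of Illumina MouseWG-6 BeadChips, from which the background had been subtracted and which had been scaled to a common mean by the authors. A signal of 64 was used as a floor, since background subtraction left values down to between -48.5 and -36.8 on the 5 arrays and weak probes scatter around 0. Between 29.8% and 30.5% of the probes lay above that floor. A gene is represented by its brightest probe, and its ratio to 0 DAI was formed if either signal exceeded the floor. If the other was under it, the ratio is a bound, given as at least or at most. Ranks and shares among all genes take each bound at that value, and the full change of such a gene may be larger. A gene was called if its log2 ratio reached 1 or -1, a change of 2-fold. By this rule 9.75% of the 8471 genes with a ratio were called at 3 DAI, and 7.5% of 8256, 11.2% of 8304 and 6.25% of 8282 were called at the 3 later times in turn. A gene whose 0 DAI signal was under the floor, or less than 2-fold above it, could not be called lower at any time. The shares of all genes include such genes. The middle of all log2 ratios lay at 0.12, 0.11, 0.12 and 0.17 in the 4 comparisons, a shift against which the ratios below are to be read, and at 0.02, -0.01, 0.00 and 0.03 after scaling the arrays to a common median. That scaling also moved the split of called genes. At 3 DAI it gave 389 higher and 446 lower genes, in place of 471 and 355. For 7 DAI it gave 225 and 362, in place of 338 and 281, for 11 DAI 351 and 540, in place of 498 and 433, and for 21 DAI 126 and 385, in place of 212 and 306. Quantile normalization gave 151 and 344 for 21 DAI. All 4 ratios of any gene rest on the same 0 DAI array.

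The niche factors fell into 3 groups. *Adipoq*, *Cxcl12*, *Vcam1* and *Igf1* were at least 2-fold higher at 3 DAI than at 0 DAI, *Cxcr4* was just past 2-fold lower at that time, and the other 5 genes were not called, *Csf1* because its bound stayed under 2-fold and *Kitl*, *Angpt1*, *Lepr* and *Pdgfrb* because no array measured them above the floor. Of the 10 genes, 4 were above the floor on all 5 arrays, 2 on some of them, and 4 on none. Of 6 niche factors that had a ratio at 3 DAI, 4 were higher and 1 was lower, beside 5.56% higher and 4.19% lower of all genes. Their median was 1.45 on the log2 scale. None of the 5 with a ratio was called at 7 DAI (median 0.15), where 4.09% of all genes were higher and 3.4% lower. None of 4 was called at 11 DAI (median -0.45), with 6% and 5.21% of all genes, or at 21 DAI (median 0.07), with 2.56% and 3.69%. *Igf1* and *Csf1* were under the floor at 0 DAI and had a ratio at 3 DAI only because they were above it there, so neither could count as lower at that time. The same held for *Igf1* at 7 DAI. *Adipoq*, at 89.0 at 0 DAI, was less than 2-fold above the floor and could not count as lower at any of the 4 times. Of the 4 genes above the floor on all 5 arrays, 3 had their highest signal at 3 DAI, where 20.5% of all such genes had theirs, and *Cxcr4* had its lowest there, as did 18% of them.

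**Figure D1:**
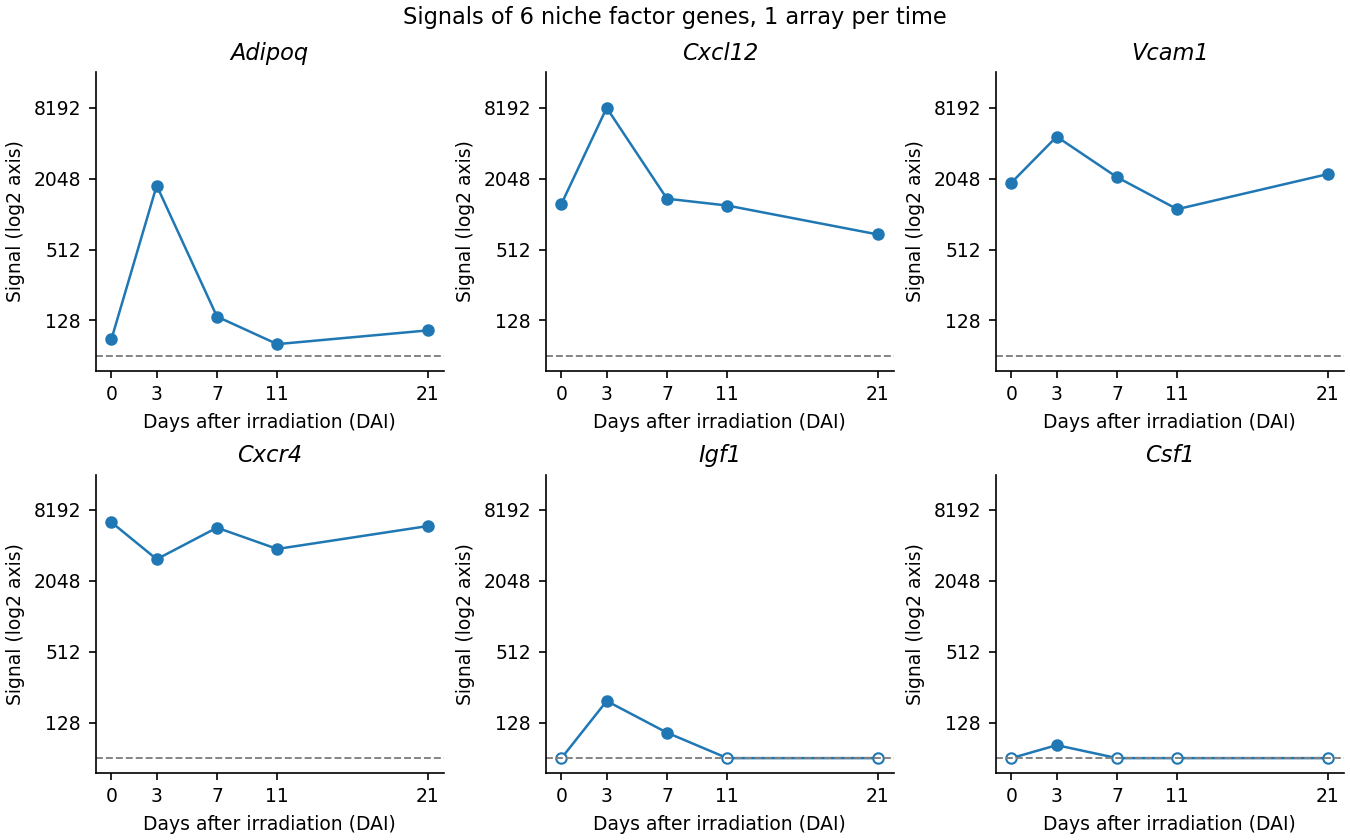
Signal of the brightest probe (log2 axis) of the 6 niche factor genes above the floor on at least 1 array, against days after irradiation, with 0 DAI the sham-irradiated marrow and 1 array per time. The dashed line is the floor of 64, and open circles are signals under it, drawn at the floor. *Adipoq* and *Cxcl12* peaked at 3 DAI at 1788 and 8167, *Vcam1* did so at 4653, and *Cxcr4* was lowest there at 3126.

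*Cxcl12* and its receptor gene *Cxcr4* went in opposite directions at 3 DAI. *Cxcl12* gave signals of 1252, 8167, 1382, 1210 and 687.0 on the arrays of 0, 3, 7, 11 and 21 DAI. The 3 DAI array stood alone, 5.91 times the next highest array, and the other 4 lay within 2.01-fold of each other. The log2 ratio at 3 DAI was 2.70, which placed *Cxcl12* 39th from the top of 8471 genes, and at 21 DAI it was -0.87, where 4.67% of the genes had a lower ratio. With common median scaling that last value reached the 2-fold rule. It was -0.22 with the mean over the 4 probes above the floor on at least 1 array. All of these but the brightest were under the floor at 0 and 21 DAI. Between successive irradiated arrays, the log2 ratio of *Cxcl12* was -2.56 for 7 against 3 DAI, -0.19 for 11 against 7 DAI and -0.82 for 21 against 11 DAI, so that each later array was lower than the one before it. *Cxcr4* gave 6432, 3126, 5792, 3821 and 5982 on the same 5 arrays. The arrays of 0, 7 and 21 DAI were close together and those of 3 and 11 DAI were low. Its log2 ratios were -1.04, -0.15, -0.75 and -0.10 at the 4 times, and 3.79% of the genes had a lower ratio at 3 DAI. With the average of the 7, 11 and 21 DAI arrays as baseline in place of 0 DAI, the 3 DAI value of *Cxcr4* was -0.71, within 2-fold.

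RefSeq start sites were read for 7 of the 10 genes, and the 250 bases before the start (GRCm38.p6) are shown for the 4 genes that have both a window and a 2-fold change at 3 DAI. For the chemokine and its receptor these lie at chr6:117168285-117168534 on the plus strand and chr1:128592300-128592549 on the minus strand. Capitals mark the GC box (GGGCGG), the CCAAT box (CCAAT) and the TATA box (TATAAA), each searched on both strands.
Cxcl12: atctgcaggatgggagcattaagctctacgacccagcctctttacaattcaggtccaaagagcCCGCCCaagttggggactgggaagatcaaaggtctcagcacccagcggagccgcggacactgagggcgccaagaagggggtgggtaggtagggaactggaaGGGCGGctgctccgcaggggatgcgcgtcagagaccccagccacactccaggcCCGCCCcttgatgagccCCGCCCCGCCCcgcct
Cxcr4: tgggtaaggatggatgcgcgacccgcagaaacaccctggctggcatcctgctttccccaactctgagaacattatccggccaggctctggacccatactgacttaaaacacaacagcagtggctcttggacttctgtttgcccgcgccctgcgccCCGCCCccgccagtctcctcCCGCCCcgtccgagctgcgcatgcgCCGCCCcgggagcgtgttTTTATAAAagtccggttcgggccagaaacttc
The *Cxcl12* window held 5 GC boxes, of which the last 2 overlap by 1 base, and no TATA box. The *Cxcr4* window held 3 GC boxes and, 32 and 30 bases before the start, 2 overlapping TATA matches on opposite strands. Of 32851 such windows, 32.7% hold a GC box, 12.4% a TATA box and 33.8% a CCAAT box. A core of the hypoxia element (ACGTG), which 16.6% of the windows hold, was in neither, nor was the palindrome of early B cell factors (TCCC and GGGA with 2 bases between them, 0.779% of windows) or a kappa B site (GGG and TTTCC with 2 bases between them, 1.41%). These matches describe letters and not binding.

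The 5 probes of *Cxcl12* are annotated to 3 RefSeq transcripts. The brightest, described above, carries NM_013655. One of the probes of NM_021704 had a signal of 827.8 at 3 DAI, against 48.2 at 0 DAI, a log2 ratio of at least 3.69, and was above the floor on 1 further array, at 72.6 at 11 DAI. One of the probes of NM_001012477 had 656.9 at 3 DAI, against 31.0 at 0 DAI, a log2 ratio of at least 3.36. These probes thus shared the 3 DAI peak of the brightest one. The second probe of NM_021704 had 100.4 at 3 DAI, against -0.63 at 0 DAI, and a log2 ratio of at least 0.65. The second probe of NM_001012477 was under the floor on all 5 arrays, with its highest signal of 10.3 at 21 DAI. So 4 of the 5 probes were above the floor at 3 DAI, and 1 of them was so at 0 DAI. The lower value of the brightest probe at 21 DAI could not be checked in the others, which were under the floor at both times.

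**Figure D2:**
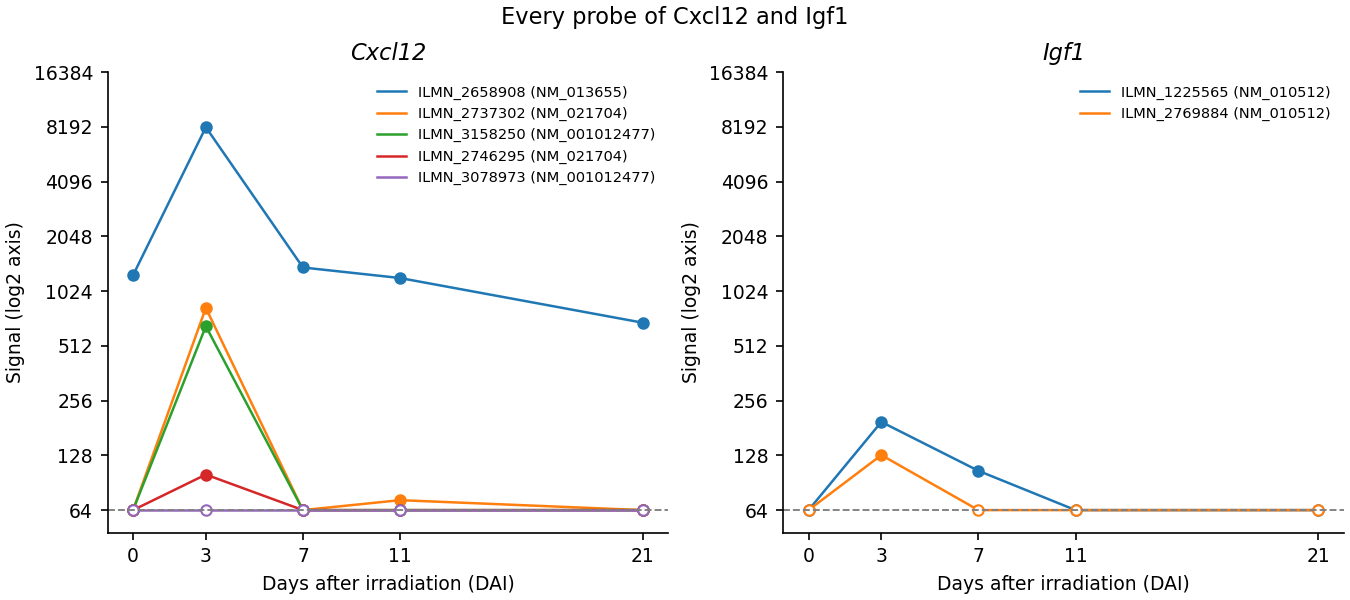
Signals (log2 axis) of the 5 probes of *Cxcl12* and the 2 probes of *Igf1* against days after irradiation, 1 array per time, each labelled with the probe and its transcript. Open circles on the dashed line are signals under the floor of 64. For both genes every probe above the floor was highest at 3 DAI.

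*Vcam1*, the adhesion molecule of stromal cells, endothelium and resident macrophages, gave signals of 1896, 4653, 2106, 1126 and 2238 on the arrays of 0, 3, 7, 11 and 21 DAI. Its 3 DAI array was high and its 11 DAI array low, with the other 3 close together. The log2 ratio was 1.30 at 3 DAI, and 0.15, -0.75 and 0.24 at the later times. Between 3 and 11 DAI the signal differed 4.13-fold, and with the average of the 3, 7 and 21 DAI arrays as baseline *Vcam1* was at -1.31 at 11 DAI. These values rest on 1 probe, annotated to NM_011693. The other 3 probes, annotated to clone sequences, were under the floor on all arrays. Genes of the integrin partner VLA-4 were near the floor. *Itga4*, its alpha chain, was above it at 0 DAI alone, at 82.5, and *Itgb1*, the beta chain, on no array, with at most 63.2 at 3 DAI. *Vcam1* was higher at 3 DAI together with part of a list of macrophage markers. Of these 14 genes, 13 had a ratio at 3 DAI, and 9 were higher and none lower, beside 5.56% and 4.19% of all genes. The 7 bounds among the 13 were under the floor at 0 DAI and entered through the 3 DAI array alone. None of these 7 could count as lower, and nor could *C1qc* and *Mrc1*, which were less than 2-fold above the floor at 0 DAI, at 67.6 and 72.0. Of the others, *Adgre1*, *Axl*, *Hmox1* and *Slc40a1*, only *Axl* was called at 3 DAI. The list's medians were 1.78, 1.08, 0.34 and 0.82 on the log2 scale at 3, 7, 11 and 21 DAI, over 13, 10, 11 and 9 genes. They were highest at 3 DAI and lowest at 11 DAI, as *Vcam1* was, but stayed above 0. This order is not particular to macrophage markers. The insulin-like growth factor genes described below had medians of 1.60, 0.29, -0.32 and 0.51. The macrophage list's summed signal was 14691 at 3 DAI, against 5593 at 0 DAI, and ran from 5971 to 14591 on the later arrays. Most of it came from 1 gene, *Slc40a1*, the iron exporter, with 8199 at 3 DAI and 4362 at 0 DAI. *C1qb* and *C1qc*, complement genes of macrophages, were at 2.73 or more and 2.33 at 11 DAI, where *Vcam1* was at -0.75. *Axl*, a receptor of GAS6, and *Mrc1*, the mannose receptor, were at 3.12 and 2.77 on the 3 DAI array. *Cd5l*, of tissue macrophages, was under the floor on all arrays. The part of macrophages in the *Vcam1* signal was not tested.

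*Adipoq* encodes adiponectin, a hormone of fat cells that stromal cells of the marrow also make. It gave signals of 89.0, 1788, 138.0, 80.5 and 105.3 on the arrays of 0, 3, 7, 11 and 21 DAI. At 3 DAI it was 20.1 times the 0 DAI signal and 13.0 times the next highest array, a log2 ratio of 4.33 that was the 4th highest of 8471 genes, and the other 4 arrays lay within 1.71-fold. At 7 DAI its log2 ratio was 0.63, higher than that of 86.7% of the genes but within 2-fold. Its receptor genes were not called at any time. *Adipor1* had log2 ratios of -0.59, 0.39, -0.80 and -0.24 and *Adipor2* of -0.08, 0.03, -0.19 and 0.11. Markers of mature fat cells did not share the size of the *Adipoq* change. Among 11 adipocyte genes on the array, 3 could be compared at 3 DAI and 2 of them were higher, beside 5.56% of all genes. These were *Lpl*, lipoprotein lipase, at 1.74, with signals of 2399 at 3 DAI and 718.1 at 0 DAI, and *Pparg*, the adipocyte transcription factor, at 1.05 or more. *Fabp4*, *Plin1*, *Plin4* and *Cidec*, which define fat cells, were under the floor on all 5 arrays, with the highest signal, 57.2, in *Fabp4* at 3 DAI. The list's summed signal was 2781 at 3 DAI and 999.1 at 0 DAI, mostly that of *Lpl*.

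*Igf1* encodes insulin-like growth factor 1, made by stromal cells and macrophages. Its brightest probe gave 23.0, 195.5, 105.3, 51.0 and 33.4 on the arrays of 0, 3, 7, 11 and 21 DAI. It was above the floor at 3 and 7 DAI and under it on the other 3 arrays, which have no order. The log2 ratio was at least 1.61 at 3 DAI and at least 0.72 at 7 DAI. Its second probe, of the same transcript, was above the floor at 3 DAI alone, at 128.5, a log2 ratio of at least 1.01. With a floor of 100 in place of 64, the brightest probe's ratio at 3 DAI was at least 0.97, a bound just short of 2-fold, and with a floor of 32 its ratio at 7 DAI was at least 1.72.

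The windows of *Adipoq* and *Igf1*, at chr16:23146286-23146535 and chr10:87860861-87861110, both on the plus strand, are shown with the same marks.
Adipoq: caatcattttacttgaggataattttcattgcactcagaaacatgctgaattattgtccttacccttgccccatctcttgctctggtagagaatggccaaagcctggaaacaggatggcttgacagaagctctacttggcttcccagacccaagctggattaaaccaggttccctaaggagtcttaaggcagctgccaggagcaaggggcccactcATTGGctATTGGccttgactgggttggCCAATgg
Igf1: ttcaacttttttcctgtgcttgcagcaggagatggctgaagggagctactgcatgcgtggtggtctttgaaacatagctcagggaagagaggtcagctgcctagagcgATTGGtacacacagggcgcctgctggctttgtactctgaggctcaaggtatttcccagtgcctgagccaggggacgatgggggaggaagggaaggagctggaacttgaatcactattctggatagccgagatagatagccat
*Adipoq* had 3 CCAAT boxes, 34, 27 and 7 bases before the start, and *Igf1* had 1, 142 bases before it. Neither had a GC box or a TATA box, and neither shared a marked motif with *Cxcl12*, although all 3 genes were higher at 3 DAI. *Vcam1* is not among the 7 genes with a window.

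Other genes of the insulin-like growth factor axis were also higher at 3 DAI. Of 11 such genes, 6 could be compared then, and 4 of these were higher and none lower, beside 5.56% and 4.19% of all genes. Their median was 1.60 on the log2 scale, beside 0.12 for all genes. *Igfbp7*, *Igfbp5* and *Igfbp4*, which encode secreted binding proteins, were at 3.49, 2.33 and 1.35. The signals of *Igfbp5* were 1615 at 3 DAI and 320.6 at 0 DAI, and those of *Igfbp4* were 7755 and 3036 at the same times. *Igf2*, the second ligand, was above the floor at 3 DAI alone, at 228.8, a log2 ratio of at least 1.84, and could not count as lower. The receptor and adaptor genes had another time course. *Igf1r*, the receptor, had signals of 739.2, 554.1, 1543, 243.4 and 970.3 at 0, 3, 7, 11 and 21 DAI, with log2 ratios of -0.42, 1.06, -1.60 and 0.39. *Irs2*, an adaptor of the receptor, was highest at 7 DAI, at 623.8 against 190.7 at 0 DAI, with log2 ratios of 0.60, 1.71, 0.91 and 1.14. The ligand was thus highest at 3 DAI, and its receptor gene was highest at 7 DAI and lowest at 11 DAI.

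*Csf1* encodes macrophage colony-stimulating factor. Its single probe was above the floor at 3 DAI alone, at 82.5, with 54.5 at 0 DAI and 38.4 to 49.8 at the later times. Its log2 ratio at 3 DAI was at least 0.37, which is no 2-fold change. *Csf1r*, its receptor, was well above the floor, with signals of 1254, 1400, 1538, 562.3 and 1547 at 0, 3, 7, 11 and 21 DAI. It was low at 11 DAI, at a log2 ratio of -1.16, and within 2-fold at the other times. *Il34*, which encodes a second ligand of this receptor, was under the floor on all arrays.

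*Kitl*, *Angpt1*, *Lepr* and *Pdgfrb* were under the floor on every array, so they have no ratio and no direction. Their 9 probes had signals between -28.2 and 38.5. Readings of this size lie about as far from 0 as the lowest negative values of the arrays, and whether the genes were expressed was not detectable at this signal. *Kitl*, stem cell factor, had 3 probes with signals between -18.3 and 16.7. *Lepr* had 2 probes between -12.9 and 22.8, and *Angpt1*, the ligand of the receptor TIE2 on HSCs and endothelium, had 3 probes between -28.2 and 38.5. The single probe of *Pdgfrb*, a receptor of perivascular cells, read 9.59, 38.2, 11.6, 23.3 and 22.1 at 0, 3, 7, 11 and 21 DAI. Signals under the floor have no order. The 2 receptors that mark perivascular reticular cells were thus without measurable signal on these arrays.

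**Figure D3:**
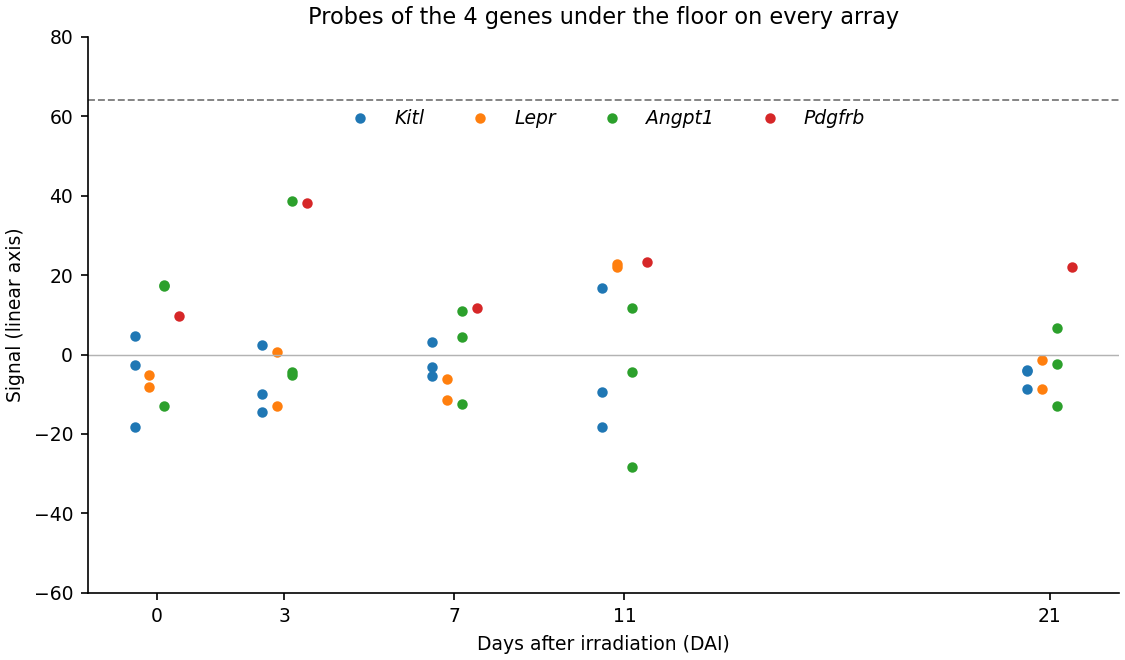
Signals (linear axis) of the 9 probes of *Kitl*, *Lepr*, *Angpt1* and *Pdgfrb* against days after irradiation, 1 array per time, with genes shifted sideways. Every point lies under the dashed line, the floor of 64, and the points scatter around 0 between -28.2 and 38.5.

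Partner genes of these 4 were partly measurable. *Kit*, the receptor of stem cell factor on stem and progenitor cells, had signals of 718.7, 1048, 1064, 668.9 and 1287 at 0, 3, 7, 11 and 21 DAI. Its log2 ratios, 0.54, 0.57, -0.10 and 0.84, were all within 2-fold. *Tek*, the gene of TIE2, and *Lep*, leptin, were under the floor on all arrays. *Angpt2*, the other TIE2 ligand, was above it at 3 DAI alone, at 86.2, a log2 ratio of at least 0.43. The PDGF ligand genes *Pdgfa* and *Pdgfb* had 135.3 and 119.8 at 3 DAI, against 20.7 and 54.7 at 0 DAI, which gave log2 ratios of at least 1.08 and 0.90. *Ackr3*, the second CXCL12 receptor, was under the floor on all arrays. Of the 15 receptor and ligand genes listed, 1 of 9 with a ratio was higher at 3 DAI (*Pdgfa*), beside 5.56% of all genes. At 7 DAI 1 of 6 was higher (*Igf1r*), beside 4.09%. At 11 DAI 2 of 7 were lower (*Igf1r* and *Csf1r*), beside 5.21%, and none of 6 was called at 21 DAI.

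**Figure D4:**
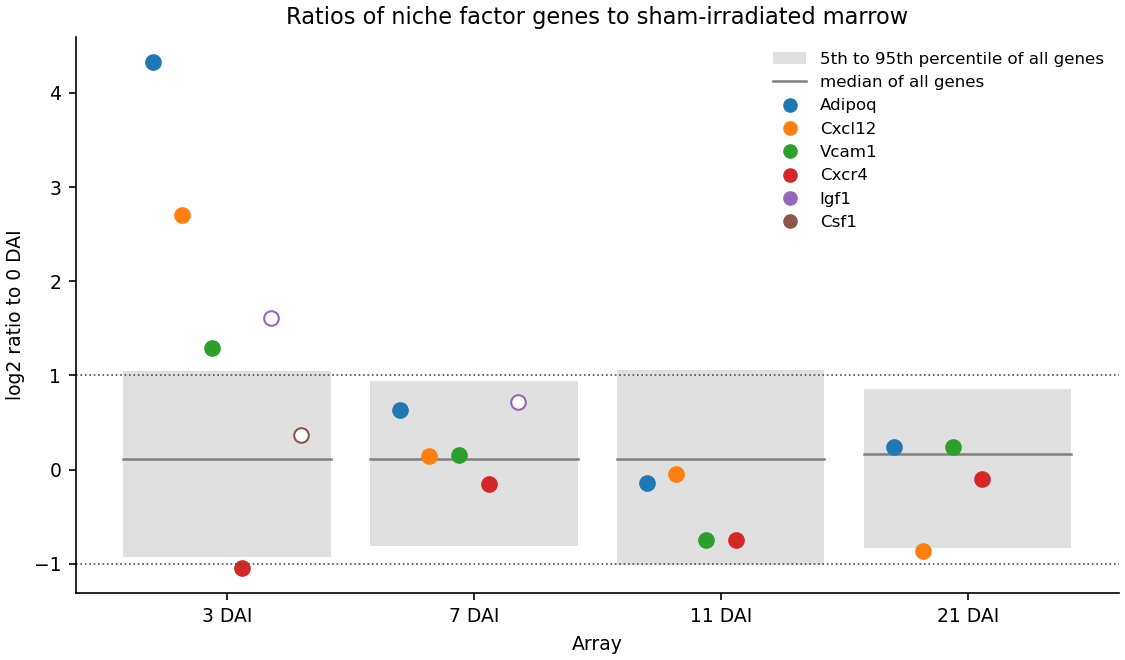
Log2 ratio to 0 DAI of the 6 niche factor genes with a ratio, at 3, 7, 11 and 21 DAI, 1 array each. Grey boxes span the 5th to 95th percentile of all genes and grey lines their median, dotted lines are 2-fold, and open circles are bounds with 0 DAI under the floor. *Adipoq* at 4.33 and *Cxcl12* at 2.70 lie far above the grey box at 3 DAI, and all points at the later times lie within 2-fold.

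Some markers of the non-hematopoietic cells that make niche factors were higher at 3 DAI in the same array. Over the lists of reticular, endothelial, pericyte, adipocyte and osteoblast genes, 57 genes were on the array and 26 could be compared at 3 DAI. Of these, 13 were higher and 1 lower, beside 5.56% and 4.19% of all genes, around a median of 0.88 on the log2 scale. Of the 13, 8 were bounds, brought into the count by the 3 DAI array alone. Most of the 26 were under the floor or less than 2-fold above it at 0 DAI and could not be called lower. The others were *Ebf1*, *Nt5e*, *Pecam1*, *Stab1*, *Eng*, *Acta2* and *Lpl*, of which *Lpl* was higher and *Nt5e* lower. At 21 DAI none of 14 was called. *Ebf3*, a transcription factor of reticular cells, was above the floor at 3 DAI alone, at 291.3, a log2 ratio of at least 2.19, and *Gas6*, a ligand of TAM receptors, was at 3.89 or more, with 946.0 at 3 DAI and 50.1 at 0 DAI. The surface markers of that list were divided, with *Cd200* at 1.18 or more and *Nt5e*, the ectonucleotidase CD73, at -1.75, with signals of 188.1 at 3 DAI and 632.1 at 0 DAI. *Foxc1*, *Prrx1*, *Nes* and *Cspg4* of the same list were under the floor on all arrays. Of the osteoblast genes, 4 of 6 with a ratio were higher, and none of the 6 could be called lower. The 4 were *Alpl*, alkaline phosphatase, at 1.92 or more, *Col1a1*, a collagen chain, at 1.73 or more, *Bglap*, osteocalcin, at 1.71, and *Sp7*, the transcription factor osterix, at 1.66 or more. That list summed to 1160 at 3 DAI, against 279.7 at 0 DAI, with 184.6 to 212.9 on the later arrays. Of the pericyte and smooth muscle genes, *Mylk*, a myosin kinase, was at 3.24, while *Acta2*, smooth muscle actin, was at -0.73 and had its lowest value, -2.63, at 11 DAI. Of the endothelial genes, 3 of 10 were higher, namely *Vwf*, *Esam* and *Flt1*. *Vwf* and *Esam* are also expressed in megakaryocytes. *Kdr*, *Flt4*, *Stab2* and *Cldn5* were under the floor on all arrays, and the summed signal of the endothelial list was 4266 at 3 DAI and 2470 at 0 DAI. The part of more stromal cells in the collected marrow in the 3 DAI values of *Cxcl12*, *Adipoq* and *Igf1* was not tested.

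Niche proteases that cut CXCL12, VCAM-1 or matrix showed a divided pattern. The stromal metalloproteinase genes *Mmp14* and *Mmp2* were higher at 3 DAI, at log2 ratios of 3.31 and at least 2.97, with signals of 893.8 and 501.5 at 3 DAI, against 89.8 and 10.1 at 0 DAI. *Ctsk*, cathepsin K of osteoclasts, was at 6.63, with 8628 at 3 DAI and 87.0 at 0 DAI. The neutrophil proteases of this list were not called at any time. *Elane*, with high signals of 24576 to 39862, had log2 ratios of 0.38, -0.19, -0.22 and 0.47, *Ctsg* of 0.95, -0.44, 0.42 and 0.63 and *Mmp9* of -0.41, 0.79, -0.50 and 0.41. *Dpp4*, a peptidase that inactivates CXCL12, was at -0.85 at 3 DAI, within 2-fold. In all, 3 of 10 proteases were higher at 3 DAI, beside 5.56% of all genes. At 7 DAI 1 of 9 was higher (*Ctsk*, 1.14), beside 4.09%. At 11 DAI 2 of 9 were higher (*Ctsk*, 1.73, and *Mmp14*, 1.47), beside 6%, and at 21 DAI none of 9 was called. None was called lower at any time. *Ctsk*, *Mmp14*, *Mmp2* and *Adam10* could not be, since each was under the floor or less than 2-fold above it at 0 DAI. *Ctsk* was under the floor at 21 DAI, at 5.98.

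Among 22 other niche signals on the array, 7 could be compared at 3 DAI and 2 of these were higher, beside 5.56% of all genes. They were *Pf4*, a chemokine of megakaryocytes that holds HSCs in quiescence, and the cytokine gene *Il6*. *Pf4* had signals of 1908, 4471, 230.9, 4228 and 1712 at 0, 3, 7, 11 and 21 DAI, and its log2 ratios of 1.23, -3.05, 1.15 and -0.16 turned from higher to lower and back. *Il6* was above the floor at 3 DAI alone, at 131.5, a log2 ratio of at least 1.04. *Il7*, the B lymphoid cytokine of CXCL12-rich reticular cells, was also above the floor at 3 DAI alone, at 98.5, a log2 ratio of at least 0.62. *Angptl4* was lower at 7 DAI, at -1.07. *Jag1*, *Dll1*, *Flt3l*, *Bmp4* and *Ptn* were either under the floor on all arrays or, for *Bmp4*, above it at 3 DAI alone, at 73.2.

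Markers of the blood cells that carry CXCR4 were divided. At 3 DAI, 3 of 7 B cell genes were lower and 1 was higher, beside 4.19% and 5.56% of all genes. The list's summed signal was 9997, against 18827 at 0 DAI. *Cd72*, *Rag1* and *Cd79b* were at -3.68, -2.57 and -2.26 at 3 DAI. *Vpreb1* and *Igll1*, of the surrogate light chain of B cell precursors, were at 1.19 and 0.93 then and at 2.24 and 2.33 on the 7 DAI array. At 11 DAI, where *Cxcr4* was also low, that sum was 26311. Of the 9 neutrophil genes, 7 lay between 28780 and 52347 on every array, where the highest signals of the arrays were 50747 to 53224. These 7 were not called at any time, and at 3 DAI they ran from -0.44 (*S100a9*) to -0.00 (*Ngp*). *S100a8*, *S100a9*, *Ltf* and *Mpo* were lowest at 3 DAI, *Camp* and *Ngp* at 11 DAI and *Lcn2* at 21 DAI. The brightest of them had little room to rise, so neither their sum nor the neutrophil list's median is read here. The other 2 are *Mmp8*, a collagenase of neutrophils, and *Cxcr2*, the chemokine receptor with which neutrophils leave the marrow. *Mmp8* had log2 ratios of -1.76, 1.00 (just short of 2-fold), -0.96 and 0.29 at the 4 times and *Cxcr2* of -0.65, 1.10, 0.07 and 0.65, both lowest at 3 DAI, as *Cxcr4* was. Of 6 erythroid genes, 2 were lower at 3 DAI (*Alas2* and *Slc4a1*, at -2.12 and -1.08) and 5 at 21 DAI, beside 4.19% and 3.69% of all genes. At 21 DAI *Klf1* and *Epor* were at -2.16 and -2.08 and *Cxcr4* was at -0.10. The part of these cells in the *Cxcr4* signal was not tested.

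**Figure D5:**
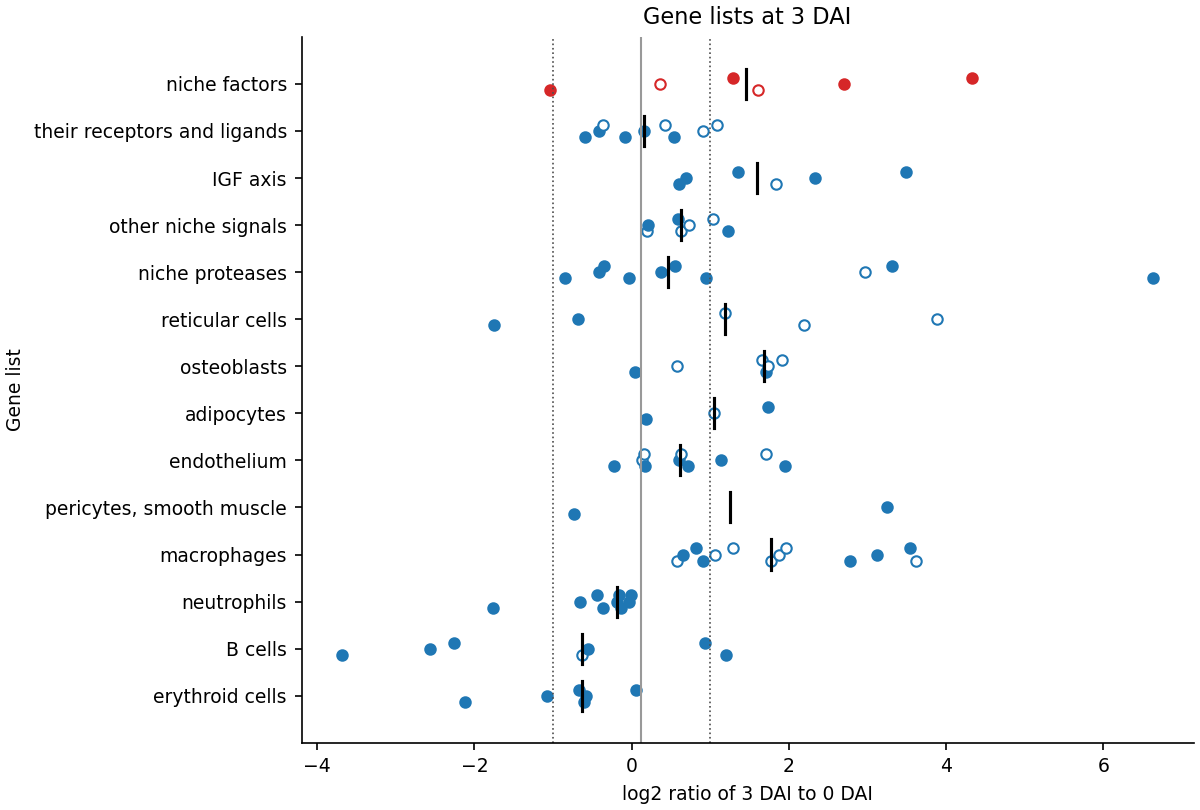
Log2 ratio of 3 DAI to 0 DAI of each gene with a ratio, by gene list, 1 array per time. Filled circles were above the floor on both arrays, open circles are bounds, black bars are list medians, the grey line is the median of all genes and dotted lines are 2-fold. The niche factors (red) had a median of 1.45, the macrophage list 1.78 and the neutrophil list, with 7 of 9 genes over 25000 on every array, -0.19.

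The genes whose time course lay nearest to that of a niche factor were found among 7125 genes above the floor on all 5 arrays, by the root mean square difference of log2 signals over the 5 arrays after each gene was centred on its own mean. Nearest to *Cxcl12* were *Ckb*, *Gja1* and *Igfbp5*, at differences of 0.23, 0.39 and 0.40, where *Cxcl12* itself varied by 1.21. *Ckb* had signals of 754.4, 6457, 757.5, 686.4 and 531.8 at 0, 3, 7, 11 and 21 DAI, with log2 ratios of 3.10, 0.01, -0.14 and -0.50. Nearest to *Adipoq*, which varied by 1.68, were *Errfi1* at 0.25, *Igfbp7* at 0.31 and again *Ckb* at 0.47. For *Vcam1*, which varied by 0.66, they were *Tmem53*, *Mansc1* and *Itgb5*, at 0.12, 0.12 and 0.13. For *Cxcr4*, which varied by 0.41, they were *Pcmtd2*, *Phf3* and *Retnlg*, at 0.09, 0.10 and 0.10. Over 5 arrays such nearness is a description, since many genes with 1 high or 1 low array look alike.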

How the data were processed

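Total marrow RNA of the 5 times was copied with an oligo(dT) primer, labelled with biotin and hybridized to Illumina MouseWG-6 BeadChips, 1 array per time. The authors read the images with GenomeStudio 2010.2 (named in the submitters' processing notes) and applied average normalization, and the deposited intensity values are background-subtracted and on a linear scale. Their mean was 535.7 on each array. A further deposited table holds 10 columns, raw signals beside their detection p-values, whose headings no label ties to a sample, and it was left aside.

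Of 45281 probes, 34885 had 1 gene symbol in the platform's annotation, 18 had several and 10378 are not listed, and the last 2 groups were left out. By Entrez identifier, 18992 of the 19057 genes matched RefSeq. Signals under the floor of 64 were raised to it. No p-value or SD was computed. The steps were tested on simulated data with known changes. The number of arrays limits the precision.

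The members, the gene lists and the size rule were chosen with earlier results of these data known. *Adipoq*, *Cxcl12*, *Igf1* and *Ctsk* are also among the genes that the study picked from these arrays, as are *Igf1r*, *Vwf* and *Epor*. Of these, the study also measured *Adipoq*, *Cxcl12* and *Ctsk* by real-time RT-PCR in independent experiments and reported them up-regulated at 3 DAI. Named genes are all 10 members with every probe, of each list the up to 4 genes called at any time with the largest ratio and the counts per time, and for each member above the floor on all 5 arrays the 3 genes nearest to it in time course. Further list genes are named by their role and were picked after their values were seen. The 9 alternatives were quantile normalization, scaling to a common median, floors of 100 and 32, no floor but a pseudocount of 50, averaging the probes of a gene, a size rule of 3-fold or 1.5-fold, and as baseline the average of the irradiated arrays of the 3 other times. The average over probes took only those above the floor on at least 1 array. Promoter windows were taken from RefSeq (GRCm38.p6). The motifs were picked from general knowledge of these genes. Versions were 3.11.15 of Python, 2.3.3 of pandas, 2.4.6 of numpy and 3.10.9 of matplotlib.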

Additional observations from a re-analysis of the deposited data

How the results depend on the processing

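No paired analysis was possible because each time has 1 array and the labels give all 5 the same replicate number. Under the 9 alternatives, 153 ratios of single niche factors kept their direction and their side of the size rule or stayed within 2-fold. A further 11 became larger than the size rule, 4 fell inside it and 1 turned round with a value past it. The 153 include sign changes within 2-fold, such as *Adipoq* at 7 DAI, 0.63 against 0 DAI and -0.84 against the other 3 irradiated arrays. They also include ratios that could not change. Floors of 100 and 32 left those of *Cxcl12*, *Cxcr4* and *Vcam1* as they were, and averaging did so for genes with 1 probe above the floor. The 1.5-fold and 3-fold rules changed only the limit and not the ratio. At 3 DAI the number called was 5, and it was 3 with the 3-fold rule, which *Cxcr4* and *Vcam1* did not reach, 4 with a floor of 100 (without *Igf1*) and 4 against the other 3 irradiated arrays (without *Cxcr4*). At 7 DAI it was 0, and it was 1 with a floor of 32 or a pseudocount of 50 (*Igf1*) and 2 with the 1.5-fold rule (*Igf1* and *Adipoq*). At 11 DAI it was 0, and it was 2 with the 1.5-fold rule (*Cxcr4* and *Vcam1*) and 2 against the other 3 irradiated arrays (*Adipoq* and *Vcam1*). At 21 DAI it was 0, and it was 1 with common median scaling or the 1.5-fold rule (*Cxcl12*) and 2 against the other 3 irradiated arrays (*Adipoq* and *Cxcl12*). The ratio that turned round with a value past the size rule was that of *Adipoq* at 21 DAI. It was -1.36 against those 3 arrays, one of which is the 3 DAI array with its peak. *Cxcl12* at 3 DAI ranged from 2.60 to 2.96 and *Adipoq* from 3.72 to 4.33 over all settings. Signals under the floor of 64 have no order, which limits *Igf1* and *Csf1* to bounds and leaves *Kitl*, *Angpt1*, *Lepr* and *Pdgfrb* without a ratio.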
